A study of Homo sapiens with 2 samples.

Results

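PTP4A1 and LIMCH1 are a pair of genes tied to cell migration whose transcripts differed in opposite directions between A549 cells and a NAT10 knockout of the same line. They were taken from the deposited RNA table by gene name, as 2 of its 1415 genes. They were chosen by their RPKM in these libraries, being well expressed and going opposite ways. The values that chose them are therefore the values described here, and no test is attached to them. A549 is an established human line of lung adenocarcinoma. One library came from unmodified A549 cells (control) and the other from A549 cells whose NAT10 gene had been disrupted with CRISPR/Cas9 and a pair of guide RNAs to a shared exon. NAT10 is the enzyme that acetylates cytidine in RNA to N4-acetylcytidine (ac4C). The study's methods describe the knockout line as a clone grown from a single cell after transfection and puromycin selection. They do not describe those steps for the control. Differences due to NAT10, to that clone and to those steps therefore cannot be told apart. There was 1 library per group and hence no spread between replicates.

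The table gives each gene a level in both libraries, read here as RPKM (reads scaled by gene length and library size). It was limited to genes whose fold change and p-value passed the authors' thresholds, so any listed gene had to differ, and a gene outside it was not analysed here. The NAT10 transcript itself was not analysed here, and neither library could be checked against its label on that gene. Of 12 markers of airway and lung epithelium, 1 (CDH1) was in the table, with 8.82 RPKM in the control and 3.76 in the knockout. Of 8 fibroblast markers, 1 (COL1A1) was there, at 0.503 and 0.223 RPKM. Of 6 endothelial and 6 leukocyte markers 0 were, which says nothing of their levels, since unchanged genes are not listed. The cell type could therefore not be checked. The effective library sizes worked out from the values were 6077933 reads for the control library and 5474964 for the knockout library.

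PTP4A1 encodes PRL-1, a small protein tyrosine phosphatase anchored to membranes by a lipid group on its carboxyl end. PRL phosphatases are known for promoting migration and invasion of tumour cells and for binding the CNNM magnesium transporters. LIMCH1 encodes an actin-associated protein with a calponin homology domain and a LIM domain. It is known to activate nonmuscle myosin II, the motor that pulls on actin stress fibres, and to restrain migration.

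PTP4A1 (ENSG00000112245) lies on chromosome 6 from 63521746 to 63583377 on the plus strand of GRCh38 and is protein-coding. Its coding transcript with the longest coding sequence (ENST00000648894.1) has 8 exons, 519 coding bases and a 3′ UTR of 3206 bases. Its active-site signature, the loop in which a cysteine attacks the phosphate and an arginine holds it, is shown because it makes the protein a phosphatase. The codons of that cysteine and arginine are in capitals, and the 24 bases start in exon 6 and end in exon 7, at 63579006 and 63579257 on chromosome 6. The last 4 codons before the stop, in exon 8 (chr6:63580160-63580171), carry the cysteine that receives the lipid anchor, with its codon in capitals.
PTP4A1 active site: catTGCgttgcaggccttgggAGA
PTP4A1 membrane anchor: TGTtgcattcaa

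LIMCH1 (ENSG00000064042) lies on chromosome 4 from 41359607 to 41700044 on the plus strand and is protein-coding. Its transcript with the longest coding sequence (ENST00000503057.5) has 32 exons, 4401 coding bases and a 3′ UTR of 632 bases. GENCODE gives LIMCH1 22 transcripts, 17 of them coding, and PTP4A1 6 transcripts, 4 of them coding. The RPKM is a value per gene and does not tell which of them was read. The LIM domain is a zinc finger pair that binds other proteins. The codons of the cysteine pair that opens it, in exon 30 (chr4:41689549-41689560), are shown with the cysteine codons in capitals.
LIMCH1 opening of the LIM domain: TGCtcttccTGT

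PTP4A1 was lower in the knockout. Its level was 74.4 RPKM in the control library, with a 95% exact Poisson interval of the reads from 71.7 to 77.3 RPKM. It was 37.4 RPKM in the knockout library, with an interval from 35.4 to 39.6. The control library was the higher. These intervals do not overlap, but PTP4A1 was chosen for such a difference, so that is no test of it. These levels stand for 2713 and 1229 reads at a gene length of 5996 bases, the smallest that gave whole reads in both libraries. The next such length, 11992 bases, would give more reads and a narrower interval at the same RPKM. The knockout level was 50.3% of the control level, 1.99-fold lower, and the 95% Clopper-Pearson interval of that fold ran from 1.86-fold to 2.13-fold. All intervals here cover the counting error of reads only, since the reads carry no molecular identifiers and no group had a second library. In RNA of a whole culture, fewer cells with a transcript and less of it per cell cannot be told apart.

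LIMCH1 was higher in the knockout. Its level was 11.1 RPKM in the control library (interval 10.4 to 11.98) and 26.5 RPKM in the knockout library (interval 25.2 to 27.8). The knockout library was the higher here, and these intervals are no test either, since LIMCH1 was chosen in the same way. The levels stand for 736 control and 1575 knockout reads. The knockout level was 2.38-fold higher, with an interval from 2.18-fold to 2.60-fold.

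**Figure D1:**
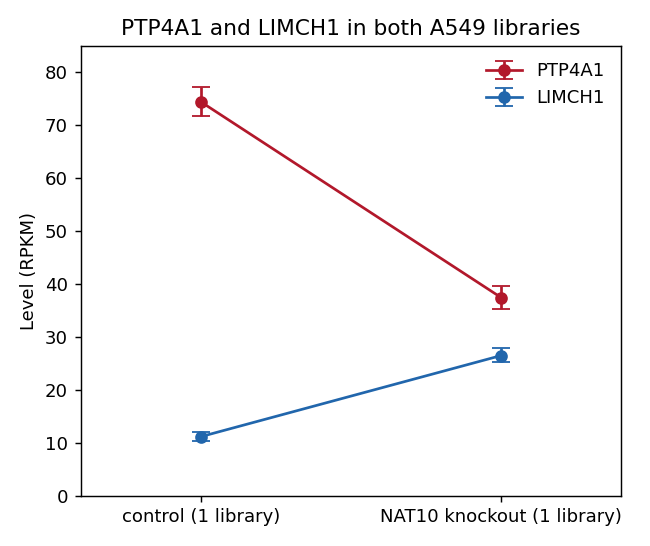
Level in RPKM (vertical axis) of PTP4A1 and LIMCH1 in the control and the NAT10 knockout library, 1 library each, with 95% exact Poisson intervals of the reads as bars. PTP4A1 went from 74.4 to 37.4 RPKM and LIMCH1 from 11.1 to 26.5 RPKM, so that the gap between the genes was smaller in the knockout. The lines join the values of 1 gene.

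Since RPKM is a level per length, the genes can be set against each other within a library. In the control PTP4A1 stood 6.68-fold above LIMCH1, with an interval from 6.15-fold to 7.25-fold. In the knockout it stood 1.41-fold above it, with an interval from 1.31-fold to 1.52-fold. PTP4A1 was the higher gene per length in both libraries, at lengths of 5996 bases for PTP4A1 and 10862 bases for LIMCH1. In reads, with PTP4A1 at 5996 bases, the knockout order was the other way, with 1229 for PTP4A1 and 1575 for LIMCH1. The next length that gave whole reads, 11992 bases, would give PTP4A1 more reads, so the order in reads is not settled. The order in RPKM is that of the deposited values. It rests on the gene lengths behind them, and the intervals do not cover that choice.

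Both genes stood near the top of the listed protein-coding genes by level. They were chosen for being well expressed, so the ranks by level and by difference below restate that choice. Genes outside the table are not ranked. Of 798 such genes, PTP4A1 ranked 4 in the control and 3 in the knockout. LIMCH1 ranked 35 in the control and 6 in the knockout. The median listed protein-coding gene had 0.638 RPKM in the control and 0.488 RPKM in the knockout, far under either gene. The difference of knockout minus control was -37.0 RPKM for PTP4A1, which ranked 8 by size among the 806 listed genes that were lower. It was 15.3 RPKM for LIMCH1, which ranked 15 among the 609 that were higher.

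By fold, the pair stood differently among the listed genes. The addition of 1 RPKM before taking log2 damps the change of weakly expressed genes. On that scale the difference of knockout minus control was -0.97 for PTP4A1 and 1.18 for LIMCH1. A difference beyond 1 in size was found in 463 of the 1415 listed genes (32.7%), with 274 (19.4%) lower and 189 (13.4%) higher. LIMCH1 was among the 189, and PTP4A1 was not among the 274. These shares come from the same contrast that chose the genes, so nothing is read from them about the pair. Without the added 1 RPKM, the log2 ratio was -0.99 for PTP4A1, with an interval from -1.09 to -0.89, and 1.25 for LIMCH1, with an interval from 1.12 to 1.38.

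PTP4A1 lay at the edge of the table. Of the 624 lower genes with a level above 0 in both libraries, 1 had a smaller log2 ratio of RPKM in size. That gene was CEBPA, a transcription factor gene named after its value was seen, at -0.99 as well. The median of the 624 was -1.70. Every listed gene had an authors' log2 fold change beyond 1, a limit that the RPKM ratio of PTP4A1 misses by a small margin. The reason was not tested. The interval of PTP4A1 includes -1. Of the 516 higher genes with a level above 0 in both libraries, 91 had a smaller log2 ratio than LIMCH1, and their median was 1.85. Genes just outside the limit were not analysed here.

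**Figure D2:**
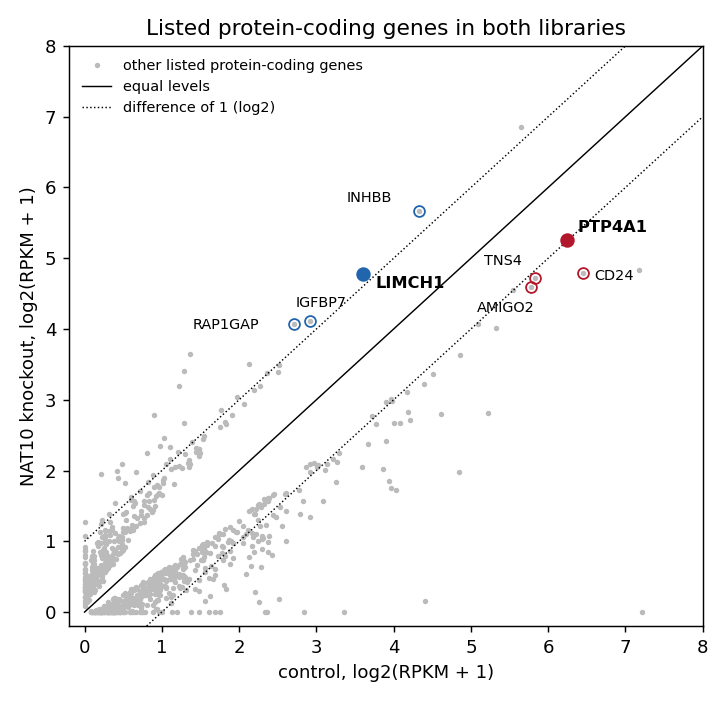
Control level (horizontal) and NAT10 knockout level (vertical), both in log2(RPKM + 1), of the 798 listed protein-coding genes, with PTP4A1 and LIMCH1 as filled circles and the 3 genes nearest to each as open circles. PTP4A1 lies on the inner side of the dotted line for a difference of 1, LIMCH1 on the outer side of the other. Of the 798 genes, 97 were lower and 37 higher beyond these lines, so most lie between them. The gap around the line of equal levels comes from the limits of the table. It closes at low levels, where the added 1 RPKM damps the differences.

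The genes with the most similar pair of levels were found by the Euclidean distance over log2(RPKM + 1) in these 2 libraries among listed protein-coding genes. Nearest to PTP4A1 were CD24 (distance 0.52), TNS4 (0.68) and AMIGO2 (0.81). CD24 encodes a small cell surface glycoprotein and went from 86.6 to 26.7 RPKM. TNS4 encodes a tensin of focal adhesions and went from 55.7 to 25.4 RPKM. AMIGO2 encodes a membrane protein of cell contacts and went from 53.8 to 23.2 RPKM. On the log2(RPKM + 1) scale the differences of CD24, TNS4 and AMIGO2 were -1.66, -1.10 and -1.18, each beyond the -0.97 of PTP4A1.

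Nearest to LIMCH1 were IGFBP7 (distance 0.96), RAP1GAP (1.14) and INHBB (1.14), so LIMCH1 had no neighbour as close as those of PTP4A1. IGFBP7 encodes a secreted protein of the extracellular matrix and went from 6.56 to 16.3 RPKM. RAP1GAP encodes a protein that switches off the small GTPase RAP1, and went from 5.55 to 15.9 RPKM. INHBB encodes a subunit of activins and inhibins and went from 19.1 to 49.6 RPKM. Their log2(RPKM + 1) differences were 1.19, 1.37 and 1.33, beside 1.18 for LIMCH1.

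The phosphatases were looked at next. Of the 7 genes of PRL phosphatases and CNNM transporters, PTP4A1 was the 1 in the table, and PTP4A2, PTP4A3 and CNNM1 to CNNM4 were not analysed here. Of 69 other tyrosine and dual-specificity phosphatases, 5 were in the table, 5 lower and 0 higher. Lower genes made up 57.0% and higher genes 43.0% of all listed genes. The median log2(RPKM + 1) difference of these 5 was -0.78, against -0.32 over all listed genes, lower and higher together. Without the added 1 RPKM their median log2 ratio was -1.27, with PTPRD set at its fold against a floor of 3 reads. The 624 lower listed genes with a level above 0 in both libraries had a median of -1.70. So these 5 are not said to be lowered more than other lower genes. DUSP16, a phosphatase of the stress kinases JNK and p38, went from 7.01 to 3.13 RPKM on 244 and 98 reads. DUSP10, of the same substrate class, went from 2.88 to 1.19 RPKM on 51 and 19 reads. DUSP8 went from 2.07 to 0.791 RPKM on 58 and 20 reads. PTPRE, a receptor-type phosphatase, went from 0.688 to 0.228 RPKM on 47 and 14 reads. PTPRD, another receptor-type member, had 7 control reads and 0 knockout reads, and the end of its interval nearest to no change was -0.38 on the log2 scale. PTP4A1 stood above each of the 5 per length in both libraries.

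The LIM-domain proteins of the cytoskeleton gave 2 listed genes of 49, LIMCH1 itself and PDLIM5. PDLIM5, a scaffold on actin-bound alpha-actinin, went the other way from LIMCH1. It had 21.8 RPKM in the control and 9.31 RPKM in the knockout, from 1467 and 565 reads, with a log2 ratio of -1.23 and an interval from -1.37 to -1.08. The control library thus held more PDLIM5 than LIMCH1 per length, and the knockout library less. LMO7, the gene related to LIMCH1 in domain structure, was not analysed here.

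Nonmuscle myosin II and its regulators, the machinery on which LIMCH1 acts, gave 2 listed genes of 44, both higher, where 43.0% of all listed genes were higher. DAPK2, a kinase that can phosphorylate the myosin light chain, went from 0.290 to 0.765 RPKM on 24 and 57 reads. CDC42BPG, a CDC42-bound kinase of the myosin pathway, went from 0.296 to 0.657 RPKM on 11 and 22 reads. The interval of its log2 ratio began at 0.05, next to no change. The heavy chains MYH9, MYH10 and MYH14 were not analysed here.

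Actin filament and stress fibre proteins gave 2 listed genes of 75. FHOD3, a formin that assembles actin filaments, went from 2.42 to 0.780 RPKM on 117 and 34 reads. CNN1, a calponin of smooth muscle, had 0 control reads and 5 knockout reads. Focal adhesion adaptors and kinases gave 3 listed genes of 49. TNS4, also among the neighbours of PTP4A1, had a log2 ratio of -1.13 with an interval from -1.27 to -1.004. FYN, a kinase of the Src family, went from 0.200 to 1.23 RPKM on 9 and 50 reads, with an interval of its log2 ratio from 1.59 to 3.83. SORBS2, an adaptor of stress fibres, had 3 control and 12 knockout reads and a log2 ratio of 2.15, with an interval from 0.26 to 4.62.

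Over all 6 lists, 15 of 293 genes were in the table, 9 lower and 6 higher, with PTP4A1 and LIMCH1 counted in, a split near that of all listed genes (57.0% lower and 43.0% higher). Beyond a log2(RPKM + 1) difference of 1 were 2 lower genes, PDLIM5 and TNS4, and 1 higher gene, LIMCH1. Of all listed genes, 19.4% were lower and 13.4% higher beyond that limit. All 15 were protein-coding, and of the 798 listed protein-coding genes 97 were lower and 37 higher beyond it. For scale, those 798 can be set beside the 19644 human genes whose coding sequences were searched for the motif below. Whether 15 of 293 differs from that background was not tested. Nothing is read from how many list genes were in the table, over all lists or in any single list. Of listed protein-coding genes with a complete coding sequence, 489 were lower and 306 higher by any amount. The median of the 15 was -0.46, against -0.32 over all listed genes. A second median used no pseudocount and set the 3 genes at or under the floor of 3 reads (PTPRD, CNN1 and SORBS2) at their fold against it. It was -1.07, which is the value given to PTPRD, 2.10-fold lower against the floor on 7 and 0 reads. The median over all listed genes was not computed on that scale, so the -0.32 cannot be set beside it. Of the 15, PTP4A1, TNS4, PDLIM5 and LIMCH1 had over 10 RPKM in at least 1 library, and LIMCH1 was the 1 of these that was higher in the knockout. Level and direction are what chose PTP4A1 and LIMCH1, so nothing is read from this about the pair.

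**Figure D3:**
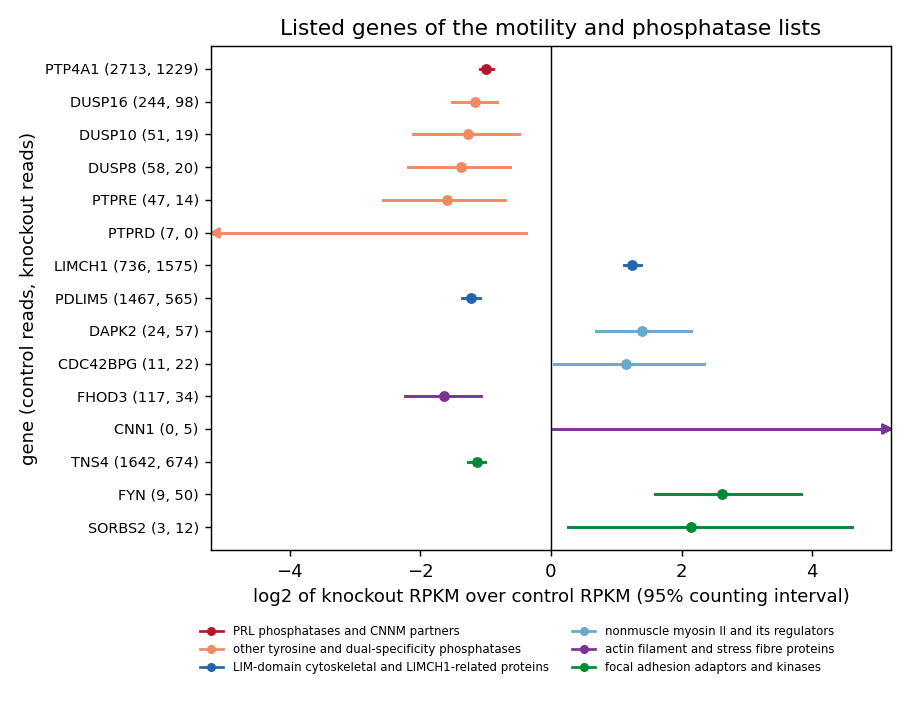
Log2 of knockout over control RPKM, without a pseudocount (horizontal), for the 15 listed genes of the 6 lists (vertical), with 95% Clopper-Pearson intervals from the reads given in brackets; arrows mark intervals without an end on that side. PTP4A1, LIMCH1, PDLIM5 and TNS4 have the narrow intervals, and those of CDC42BPG, CNN1 and SORBS2 begin near 0.

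The surroundings of each gene were read from the table as well. Of 22 other annotated genes that start within 1 Mb of PTP4A1, 2 were listed, both lower, where 57.0% of all listed genes were lower. Nothing is read from that number either. LGSN, a gene on the minus strand whose interval begins 245795 bases before that of PTP4A1, went from 3.73 to 1.47 RPKM on 132 and 47 reads, a log2 ratio of -1.34 with an interval from -1.85 to -0.85. AL121949.1, an unprocessed pseudogene that starts 80980 bases before PTP4A1 on its strand, went from 7.14 to 3.59 RPKM on 42 and 19 reads. Its log2 ratio of -0.99 had an interval from -1.86 to -0.18. Of 35 such genes around LIMCH1, DCAF4L1 was the 1 listed, with 6 control reads and 0 knockout reads, in the direction opposite to LIMCH1.

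Some reads of PTP4A1 may belong to other loci. A second protein-coding gene, AL135905.2, lies on the same strand from 63572012 to 63583587 and shares 4170 exon bases with PTP4A1, 79.0% of its exon sequence in GENCODE release 29. PTP4A1 also has 7 processed pseudogenes named after it in that release, whose aligned part is 72.1% to 93.2% identical to the PTP4A1 transcript. None of these 8 was in the table. How reads with several positions, or in shared exons, were counted is not given in the sources used here, and the PTP4A1 level is uncertain to that extent. The antisense gene AL135905.1 within PTP4A1, and AC105389.2 within LIMCH1, share 0 exon bases with them.

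Because the study asked which transcripts carry ac4C, the coding sequences were searched for its reported repeat, a C followed by any 2 bases over 4 units. The motif was CNNCNNCNNCNN, read on the sense strand of the transcript, with overlapping matches counted. The PTP4A1 coding sequence held 1 match and the LIMCH1 coding sequence 25. Among 883 human coding sequences within 10% of the length of PTP4A1, 89.0% held at least 1, with a median of 5, and 11.0% held fewer than PTP4A1. Among 475 within 10% of the length of LIMCH1, 99.8% held at least 1, with a median of 35, and 38.1% held fewer than LIMCH1. Per kilobase of coding sequence the density was 1.93 in PTP4A1 and 5.68 in LIMCH1, against a median of 9.14 over 19644 genes. The GC content of the coding sequence was 41.0% in PTP4A1, against a median of 53.6% in its 883. For LIMCH1 it was 50.3%, against 50.5% in its 475. A count of C repeats depends on such composition, and the counts were not adjusted for it. Joined into runs, the LIMCH1 matches gave 19 stretches, 6 of them with 5 units, and the PTP4A1 match a single stretch. They are shown for comparison, the first of the 6 for LIMCH1 (exon 5, chr4:41613513-41613527) and the single PTP4A1 stretch (exon 6, chr6:63578920-63578931), with the repeated C in capitals.
PTP4A1 repeat: CacCacCatCca
LIMCH1 repeat: CtaCatCgaCtgCtg

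A match says that these letters occur and not that the base is acetylated. The study also measured ac4C in wild-type and NAT10 knockout A549 cells, by sequencing RNA captured with an antibody. Those data were not analysed here. Whole transcripts differed as well, with 1.27 matches per kilobase in PTP4A1 and 4.94 in LIMCH1.

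**Figure D4:**
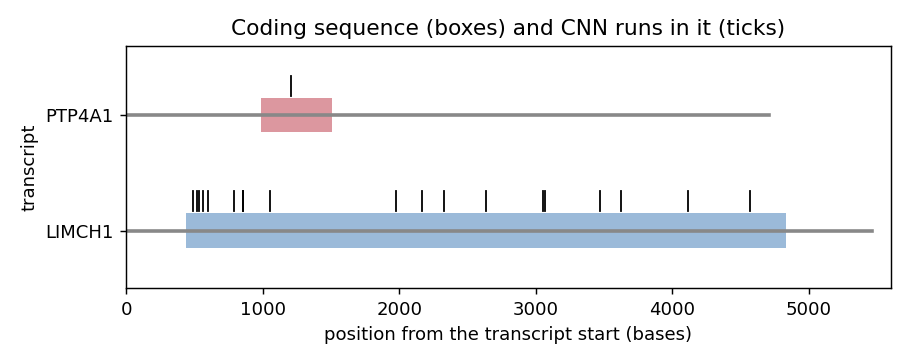
Position in bases from the start of the PTP4A1 and LIMCH1 transcripts with the longest coding sequence (horizontal), with coding sequence as boxes, untranslated sequence as lines, and the starts of runs of 4 or more CNN units in the coding sequence as ticks. PTP4A1 has 1 run in 519 coding bases and a long 3′ UTR, and LIMCH1 has 19 runs in 4401 coding bases.

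The transcripts also differed in base composition and in layout. PTP4A1 had a GC content of 35.6% over its transcript and 41.0% over its coding sequence. LIMCH1 had 48.4% and 50.3%. The middle of the 489 lower listed protein-coding genes with a complete coding sequence ran from 43.0% to 58.1% over the transcript (lower to upper quartile), with PTP4A1 below it. That of the 306 higher genes ran from 44.1% to 59.0%, with LIMCH1 inside it. The coding sequence of PTP4A1 was shorter than the lower quartile of the lower genes, 891 bases, and that of LIMCH1 longer than the upper quartile of the higher genes, 2488.5 bases. The 3′ UTR of PTP4A1 was longer than the upper quartile of the lower genes, 2216 bases, and that of LIMCH1 was under the median of the higher genes, 820.5 bases.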

How the data were processed

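The authors deposited a level per gene for 1 control and 1 NAT10 knockout library of A549 RNA, prepared with a SMARTer mRNA-seq kit. The header does not name the unit of these deposited values, and RPKM was inferred from the whole reads described below. Samples were grouped by title, and the column headed WT-input was matched to the control as the only unmodified sample. The knockout column was headed NAT10-KO-input. The build was hg38 per the submitters' processing notes. The aligner, the annotation, the counter and its use of strand are not given in the sources used here. The authors' table also holds their own comparison (log2 fold change, p-value and its adjusted form), which was not used. Every listed gene had a p-value under 0.05 there and a log2 fold change above 1 or below -1.

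RPKM times GENCODE 29 exon length gave whole reads (within 0.02) in both libraries for 1343 of 1408 genes with a length (95.4%), which set the effective library sizes. Where it did not, the smallest length between 50 and 20000 bases that gave whole reads in both libraries (within 1e-05) was taken. For PTP4A1 this was 5996 bases in place of 5281, and the next was 11992, which would raise its reads in proportion and narrow its interval. Differences are log2((knockout RPKM + 1)/(control RPKM + 1)), with no test. Intervals are 95% exact Poisson intervals of a level and 95% Clopper-Pearson intervals of a ratio. Sequences and positions are from GENCODE 29 (GRCh38). Protein sequences were not used here. Named genes were the pair, the listed members of the gene lists (at most 4 a list by mean RPKM, and PTPRD in addition), the 3 nearest genes and listed genes within 1 Mb. The members and lists were chosen with earlier results of these data known. Read recovery was tested on simulated data. Python 3.11.15, NumPy 2.4.6, SciPy 1.17.1, pandas 2.3.3 and Biopython 1.88 were used.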

Additional observations from a re-analysis of the deposited data

How the results depend on the processing

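The setting without a pseudocount was chosen after seeing the data. The difference of PTP4A1 kept its direction throughout and lay between -0.99 and -0.90 under other pseudocounts. It was -0.21 with the median of the 275 listed protein-coding genes with a mean of at least 1 RPKM set to 0, which shifts every gene by 0.76, since that median was -0.76 in a table that starts at a fold limit. LIMCH1 kept its direction and was 0.96 with a pseudocount of 5 RPKM, no longer beyond 1, and 1.94 with the median set to 0. A pseudocount of 0.1 RPKM put 719 lower and 556 higher genes beyond 1, where 5 RPKM left 45 and 21. There were 56 and 582 with the median set to 0, 97 and 37 among protein-coding genes only, and 36 and 22 beyond 2. The median of the 15 list genes was -1.02 with 0.1 RPKM, -0.12 with 5 RPKM, -0.95 with a mean of at least 1 RPKM, where 1 higher gene was left, and turned to 0.30 with the median set to 0. No paired analysis was possible because each group had 1 library. Leaving out a library was not possible for the same reason. A true spread between libraries was not measured, and depth limits the list genes with few reads.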
